A study of Mus musculus with 6 samples.

Results

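p53 and 30 genes that regulate it or are known as its targets were followed in RNA sequencing libraries of mouse DN3 thymocytes. The 31 genes are p53 itself, its inhibitors and its targets, with the BCL2 family left out apart from Pmaip1. They were chosen by name from the 24015 gene symbols in the deposited count tables. All 31 were found there, and 27 had enough counts to be tested. These genes, and the lists set beside them below, were chosen with earlier results of these data known. DN3 cells are early T cell precursors without surface CD4 or CD8, sorted here as lineage-negative, CD44 low and CD25 high. There were 6 libraries in 3 groups of 2. The p45-deficient libraries came from mice of genotype p45-/-, which lack the long isoforms of Tcf1, the transcription factor encoded by Tcf7, and keep the short ones. The Tcf1-deficient libraries came from Lck-cre+ Tcf1 fl/fl mice, in which Cre driven by the T-lineage promoter of Lck was used to remove every Tcf1 protein. The control libraries came from mice labelled wild type, and their age and strain were not stated. Only the Tcf1-deficient genotype names Cre, so effects of Cre cannot be told apart from those of Tcf1 loss. Effects of mouse line likewise cannot be told apart from those of genotype in any comparison. The series asks which Tcf1 isoforms T cell development requires. Whether both libraries of a genotype were made from different mice is not stated, and the p-values below therefore rest on library-to-library spread that may be technical.

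p53 is a transcription factor that the ubiquitin ligase Mdm2 and its partner Mdm4 hold in check, and that is released when DNA is broken or cells are stressed. It then switches on genes that stop the cell cycle, repair DNA, alter metabolism or kill the cell, among them Mdm2 itself, which closes a feedback loop. DN3 thymocytes cut their own DNA to rearrange the T cell receptor beta locus, and p53 is known to restrain precursors that have not made a working receptor chain. Much of p53's activity is set at the level of the protein, which RNA counts do not show.

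p53 binds DNA as a tetramer, at a pair of 10-base half-sites. In the RefSeq promoters at hand (build GRCm38.p6), which cover 22 of the 31 genes, the p53 full-site consensus was searched with a gap of 0 or 1 base between the half-sites, the core C and G of each fixed and at most 2 mismatches elsewhere. Because the consensus reads the same on both strands, 1 scan covers both. The window ran from 250 bases before to 50 bases after each start. Of the 22 genes 3 held such a match (13.6%), against 218 of all 27025 genes with a promoter in the table (0.807%). These were Ccng1, Gtse1 and Trp73. With up to 3 mismatches the count was 7 of 22 (31.8%), against 3.27% of all genes. Because known p53 targets were chosen, a share above that of all genes was built into the choice and is not a result. The letters CTTTGA, the core of the sites bound by TCF and LEF factors such as Tcf1, stood on either strand in the promoters of 4 of the 22 genes (18.2%), also the share of all genes (18.2%). A match is a description of the letters and not a measured binding site. The promoters with the 3 matches are shown because they hold a match to the p53 consensus, and that of Plk3, which had 5 mismatches at best, because Plk3 gave the largest called difference. Each runs from 250 bases before the start to 20 bases after it, with the p53 match in capitals. Ccng1 is shown at chr11:40755267-40755536 on the minus strand, with 1 mismatch, Gtse1 at chr15:85859696-85859965 on the plus strand, with 1 mismatch, Trp73 at chr4:154097154-154097423 on the minus strand, with 2 mismatches, and Plk3 at chr4:117133944-117134213 on the minus strand.
Ccng1: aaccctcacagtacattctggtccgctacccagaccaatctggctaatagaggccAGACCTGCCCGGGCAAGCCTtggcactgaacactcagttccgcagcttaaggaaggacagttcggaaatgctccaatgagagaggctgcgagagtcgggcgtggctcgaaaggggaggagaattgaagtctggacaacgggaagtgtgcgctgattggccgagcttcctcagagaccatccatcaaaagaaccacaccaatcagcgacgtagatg
Gtse1: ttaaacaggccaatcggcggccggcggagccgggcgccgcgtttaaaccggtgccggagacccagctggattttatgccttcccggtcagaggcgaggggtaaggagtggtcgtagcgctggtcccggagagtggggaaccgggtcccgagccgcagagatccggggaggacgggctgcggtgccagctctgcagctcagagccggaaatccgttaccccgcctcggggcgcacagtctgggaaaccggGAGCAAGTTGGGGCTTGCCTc
Trp73: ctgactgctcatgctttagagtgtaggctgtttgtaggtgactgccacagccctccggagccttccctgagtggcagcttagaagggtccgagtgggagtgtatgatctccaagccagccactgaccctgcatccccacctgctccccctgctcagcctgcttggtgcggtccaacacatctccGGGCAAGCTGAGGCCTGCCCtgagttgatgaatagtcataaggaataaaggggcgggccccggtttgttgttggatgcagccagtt
Plk3: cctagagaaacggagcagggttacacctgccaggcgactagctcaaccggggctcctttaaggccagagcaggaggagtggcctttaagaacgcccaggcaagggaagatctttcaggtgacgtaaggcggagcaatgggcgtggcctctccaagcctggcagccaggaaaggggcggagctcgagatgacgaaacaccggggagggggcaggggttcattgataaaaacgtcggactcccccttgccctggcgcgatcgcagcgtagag
The match began 195 bases before the start in Ccng1 and 66 bases before it in Trp73, and in Gtse1 it began at the last base before the start and ran into the transcript. As shown further on, Ccng1 and Gtse1 were well expressed in DN3 cells and Trp73 was nearly silent, with 0 counts in 4 of the 6 libraries.

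Library totals ran from 19640524 to 28107031 counts, so that 3 counts in one library correspond to between 0.107 and 0.153 CPM, a count relative to its library total, before the scaling factors are applied, a floor that covers counting error only. The targeted gene, Tcf7, had 2340 and 2414 CPM in p45-deficient, 979 and 976 CPM in Tcf1-deficient and 2088 and 1810 CPM in control libraries, and counts per gene neither separate its isoforms nor leave out reads from parts of the gene that were not deleted. Its log2 fold change in Tcf1-deficient cells was −0.995 against control, which did not pass (adjusted p = 0.0762 by edgeR), and −1.28 against p45-deficient cells (adjusted p = 0.0031 by edgeR), with both Tcf1-deficient libraries below the other 4. All 13 DN3 marker genes, among them Il2ra (CD25), Ptcra and Rag1, were detected, with summed levels of 10412 to 11311 CPM in p45-deficient, 8668 and 11767 CPM in Tcf1-deficient and 10964 and 12592 CPM in control libraries. None of the 13 was called against control. In Tcf1-deficient against p45-deficient cells Ptcra (−1.15 on the log2 scale) and Rag1 (−1.33) were lower and Hes1 (1.41) was higher, so these stage markers differed between the mutants, and their part in the results below was not tested. Summed levels of 7 B cell genes were 13.9 and 16.3 CPM in p45-deficient, 19.9 and 29.6 CPM in Tcf1-deficient and 28.7 and 36.3 CPM in control libraries, and those of 10 myeloid and dendritic genes were 92.3 and 94.98 CPM, 71.4 and 162 CPM, and 112 and 168 CPM in the same order of groups. Of these genes Cd79a was called lower in p45-deficient against control cells (−4.10) and Cst3 lower in Tcf1-deficient against p45-deficient cells (−0.47), both on the log2 scale. The part of such cells in the results below was not tested. Of the 7 erythroid genes looked for, 5 had no count in any library. The 8 thymic stromal and vessel genes summed to 169 and 182 CPM in p45-deficient, 198 and 215 CPM in Tcf1-deficient and 162 and 166 CPM in control libraries. Of these 8, 3 averaged under 0.5 CPM (Krt5, Col1a2 and Foxn1), and none of the 5 tested was called. The Tcf1-deficient libraries differed most from each other, with an SD of the log2 difference over genes of 0.849, against 0.553 for the p45-deficient and 0.531 for the control libraries.

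Few of the 27 tested genes were called in any comparison, and a missing call does not show that a gene was unchanged. In p45-deficient against control cells 1 rose, Ptp4a3, and 1 fell, Mdm4, while 16% of all 12939 genes tested were called in that comparison (8.47% higher and 7.55% lower). In Tcf1-deficient against control cells none was called, and neither was any other gene (0% of 12939) by edgeR's quasi-likelihood test. At an unadjusted p below 0.05 that comparison had 1 of the 27 genes, Plk3, and 557 higher and 467 lower genes in all. DESeq2 called 145 genes there and none of the 27. In Tcf1-deficient against p45-deficient cells, the test of the difference between the mutants, 1 gene was higher, Plk3, and none lower, with 10.4% of all genes called (5.05% higher and 5.36% lower). The median log2 fold change of the 27 genes was 0.01, 0.06 and 0.14 in the 3 comparisons in this order, against 0.05, 0.01 and −0.01 over all genes tested. The summed level of the 31 genes lay between 1679 and 1861 CPM in all 6 libraries.

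In p45-deficient against control cells both mutant libraries lay above both controls for 10 of the 27 genes and below both for 8. Over all genes tested, 37.9% lay above and 31.3% below in this way, 69.3% in all. In Tcf1-deficient against control cells 5 of the 27 lay above and 4 below, where all genes gave 16.4% above and 18% below, 34.4% in all. In Tcf1-deficient against p45-deficient cells 10 lay above and 8 below, where all genes gave 27.7% above and 33.3% below, 61% in all. The comparisons with control share their control libraries, so their values are given side by side and are not independent.

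**Figure D1:**
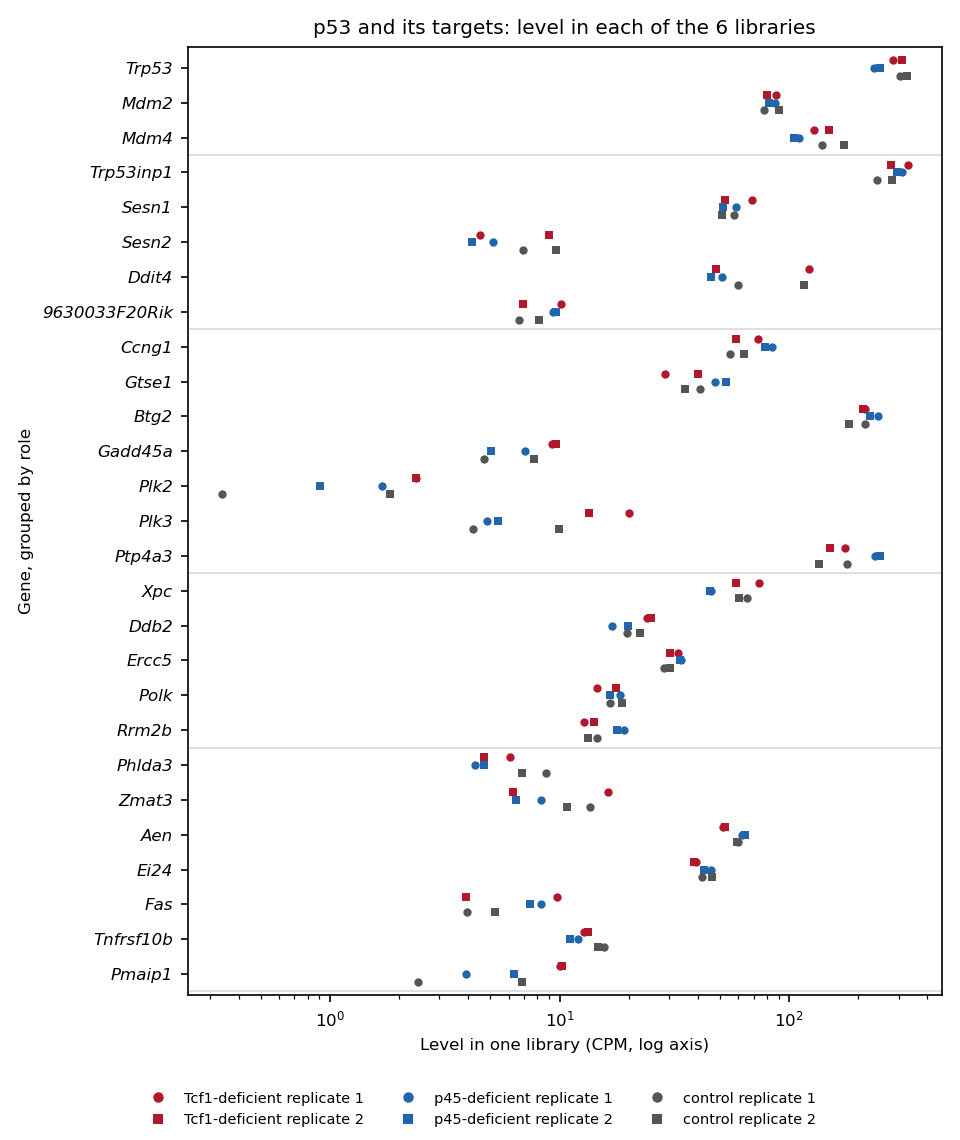
Level of each of the 27 tested genes in each library, in CPM on a log axis, with genes grouped by role and, within a gene, Tcf1-deficient above p45-deficient above control; circles are replicate 1 and squares replicate 2. For most genes the 6 points lie close together, while Plk3, Ddit4, Zmat3, Fas, Pmaip1 and Plk2 spread more, also between the 2 libraries of one group.

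Among p53 and its inhibitors, Mdm4 was the only one called. Mdm4, which binds the activation domain of p53 and blocks it, stood at 110.4 and 105 CPM in p45-deficient, 128 and 148 CPM in Tcf1-deficient and 138 and 173 CPM in control libraries. Both p45-deficient libraries lay below every other library. The level was 108 ± 3.61 CPM in p45-deficient and 156 ± 24.8 CPM in control cells (mean ± SD, n = 2 each). It fell by 0.53 on the log2 scale (SE 0.15), and the adjusted p from edgeR was 0.0499, just inside the threshold of 0.05.

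Trp53, the gene of p53 itself, moved the same way without passing the test. It stood at 233 and 249 CPM in p45-deficient, 284 and 309.7 CPM in Tcf1-deficient and 303 and 327 CPM in control libraries. Again the p45-deficient libraries were the lowest of the 6, while the Tcf1-deficient and control libraries overlapped. The log2 fold change was −0.38 in p45-deficient against control cells (SE 0.12, adjusted p = 0.0629 by edgeR) and −0.08 in Tcf1-deficient against control cells (SE 0.12, adjusted p = 0.871 by edgeR). Fitted with library totals in place of the main scaling, the fall of Trp53 passed (−0.49, adjusted p = 0.0309 by edgeR), as it did by DESeq2 (−0.43, adjusted p = 0.00962). Without any one of the p45-deficient or control libraries it did not, with an adjusted p of 0.133 to 0.386.

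Mdm2, the ligase that marks p53 for destruction and a classical p53 target, was level across genotypes within its error. It stood at 87.0 and 81.9 CPM in p45-deficient, 87.5 and 80.3 CPM in Tcf1-deficient and 77.5 and 89.9 CPM in control libraries. Its log2 fold changes were 0.01 and 0.00 against control, each with an SE of 0.13. Those values are so close to 0 that their sign changed in 9 of the 14 alternative settings in each comparison.

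The calls in p45-deficient against control cells depended on having both libraries of each of these groups. Without any one of them, a single library remained in its group. Over all 14 alternative settings Mdm4 kept its sign, at −0.74 to −0.42 on the log2 scale, as did Ptp4a3, at 0.39 to 0.80. Neither Ptp4a3 nor Mdm4 was called without control replicate 1, control replicate 2, p45-deficient replicate 1 or p45-deficient replicate 2. Calls over all genes tested also fell in each of these fits, so the loss is not particular to Ptp4a3 and Mdm4. Without Tcf1-deficient replicate 1 the calls were Ccng1 and Ptp4a3 higher and Trp53, Mdm4, Phlda3, Sesn2, Zmat3 and Xpc lower, 2 and 6 genes, beside 3857 calls over all genes. Without Tcf1-deficient replicate 2 they were Ccng1, Ptp4a3 and Gtse1 higher and Trp53, Mdm4, Zmat3 and Xpc lower, beside 3923 calls. A fit of only the p45-deficient and control libraries gave the same 8 genes as without Tcf1-deficient replicate 1, beside 3907 calls.

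**Figure D2:**
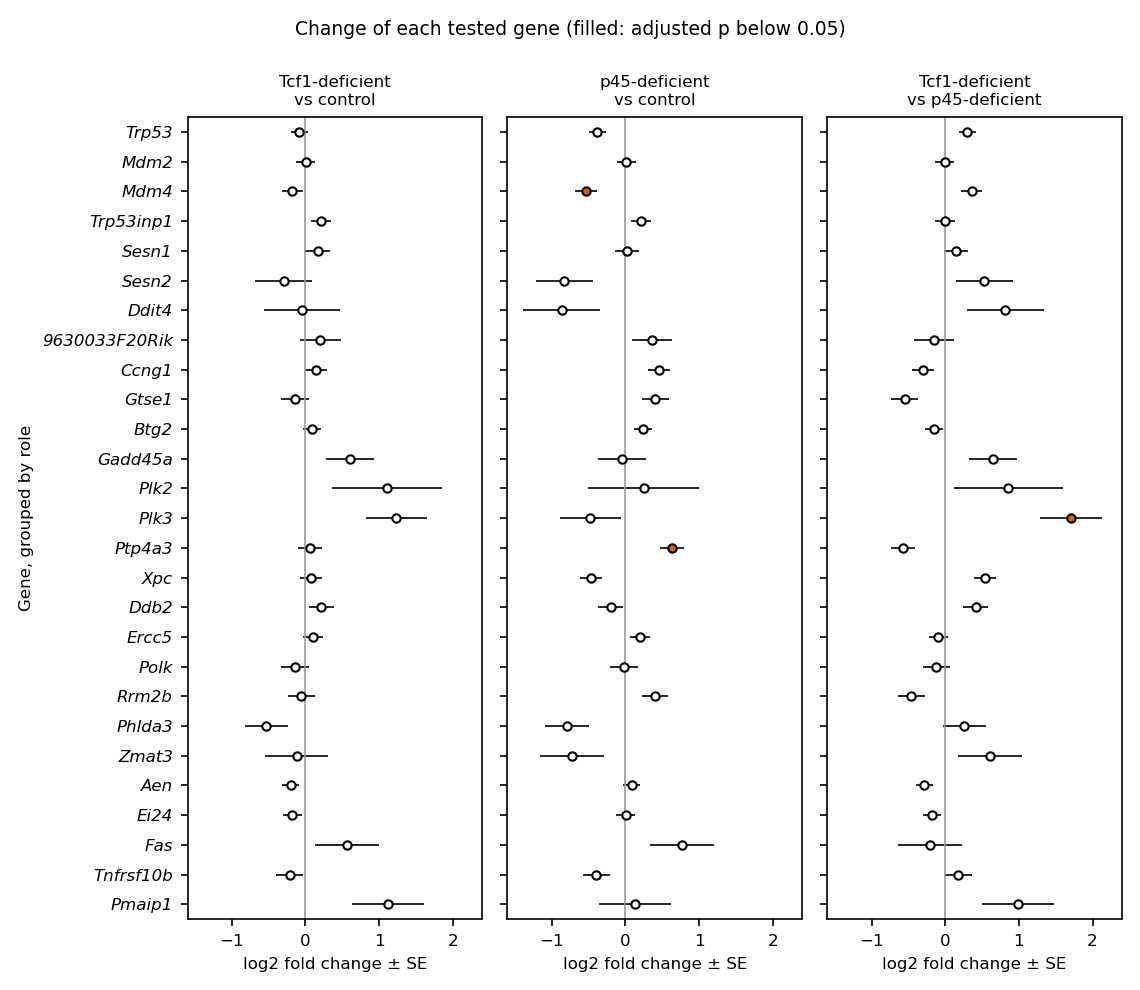
Log2 fold change of each tested gene with its SE in the 3 comparisons, Tcf1-deficient and p45-deficient each against control and Tcf1-deficient against p45-deficient; filled points have an adjusted p below 0.05 by edgeR. Mdm4 and Ptp4a3 are filled in the p45-deficient comparison, Plk3 in the comparison of the mutants, and none in Tcf1-deficient against control.

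Among targets that act on growth and the cell cycle, 1 gene rose in p45-deficient cells. Ptp4a3, a phosphatase whose gene p53 is known to induce, stood at 236 and 249.7 CPM in p45-deficient, 176 and 150.1 CPM in Tcf1-deficient and 178 and 135 CPM in control libraries. Its p45-deficient libraries were the highest of the 6. It rose 1.55-fold in p45-deficient against control cells (0.64 on the log2 scale with an SE of 0.16, and edgeR's adjusted p was 0.0386). Tcf1-deficient minus p45-deficient was −0.58 on the log2 scale and did not pass (SE 0.16, edgeR's adjusted p = 0.0618). With library totals the difference from control did not pass (0.53, adjusted p = 0.074 by edgeR).

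Ccng1 encodes cyclin G1, a feedback regulator of p53. It stood at 84.4 and 78.2 CPM in p45-deficient, 72.9 and 58.8 CPM in Tcf1-deficient and 55.2 and 63.7 CPM in control libraries. The p45-deficient libraries lay above the rest, with a log2 fold change of 0.45 against control that did not pass the test (SE 0.15, adjusted p = 0.0788 by edgeR).

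Gtse1 encodes a microtubule-associated protein of the G2 phase that carries p53 out of the nucleus in human cells. It stood at 47.7 and 53.3 CPM in p45-deficient, 28.9 and 40.0 CPM in Tcf1-deficient and 40.8 and 35.2 CPM in control libraries. The log2 fold change against control was 0.41 in p45-deficient cells (SE 0.18, adjusted p = 0.166 by edgeR). A list of 15 mitosis genes moved beside it. Of all genes tested, 8.47% were called higher in p45-deficient against control cells and 5.36% lower in Tcf1-deficient against p45-deficient cells. All 15 were higher in p45-deficient than in control cells, 12 of them called (Cenpf, Cdk1, Hmmr, Top2a, Ccnb1, Kif20a, Bub1, Aurka, Ccna2, Cenpa, Plk1 and Ccnb2), with summed levels of 4461 and 4580 CPM in p45-deficient, 2143 and 2873 CPM in Tcf1-deficient and 2600.1 and 2242 CPM in control libraries. Called genes of that list numbered 2 to 5 without any one of the p45-deficient or control libraries and 15 without either Tcf1-deficient library. In Tcf1-deficient against p45-deficient cells all 15 were lower, 12 of them called, with Mki67 in place of Plk1. That count was 7 without either control library, 0 without either p45-deficient library, and 9 and 14 when the first or the other Tcf1-deficient library was left out. Calls over all genes tested also varied widely across the same fits, as given at the end. The part of cell division in the values of Gtse1 was not tested.

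The antiproliferative gene Btg2 stood at 244 and 225 CPM in p45-deficient, 213 and 210.3 CPM in Tcf1-deficient and 214 and 183 CPM in control libraries, with no call in any comparison. The Polo-like kinase genes Plk2 and Plk3 and the growth-arrest gene Gadd45a belong to the same group and are taken up below with Pmaip1.

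Among DNA repair genes no member was called in any comparison. Xpc, which recognises damaged bases in nucleotide excision repair, came closest, at 45.9 and 45.4 CPM in p45-deficient, 74.2 and 58.6 CPM in Tcf1-deficient and 65.7 and 60.5 CPM in control libraries. Here too the p45-deficient libraries lay below all others, at −0.47 on the log2 scale against control (SE 0.15, edgeR's adjusted p = 0.0702). The Tcf1-deficient level lay above the p45-deficient one by 0.54 (SE 0.15, adjusted p = 0.058 by edgeR). Both differences passed by DESeq2, the first with an adjusted p of 0.0225. The first did not pass with DESeq2 size factors (adjusted p = 0.0539 by edgeR) or with the replicate block (adjusted p = 0.0807 by edgeR). It was called in 7 of the 14 alternative settings, and in none that left out a p45-deficient or control library.

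Rrm2b, the p53-induced subunit of ribonucleotide reductase, stood at 19.1 and 17.8 CPM in p45-deficient, 12.7 and 14.1 CPM in Tcf1-deficient and 14.5 and 13.4 CPM in control libraries. Ddb2, a damage sensor that works ahead of Xpc, stood at 16.9 and 19.96 CPM in p45-deficient, 24.0 and 25.0 CPM in Tcf1-deficient and 19.7 and 22.4 CPM in control libraries. Rrm2b was thus highest in the p45-deficient and Ddb2 in the Tcf1-deficient libraries. Neither passed, with adjusted p values by edgeR of 0.16 for Rrm2b in p45-deficient against control and 0.754 for Ddb2 in Tcf1-deficient against control. Ercc5, a nuclease of excision repair, and Polk, a polymerase that copies past lesions, had log2 fold changes against control of 0.19 and −0.02 in p45-deficient cells and 0.10 and −0.14 in Tcf1-deficient cells.

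**Figure D3:**
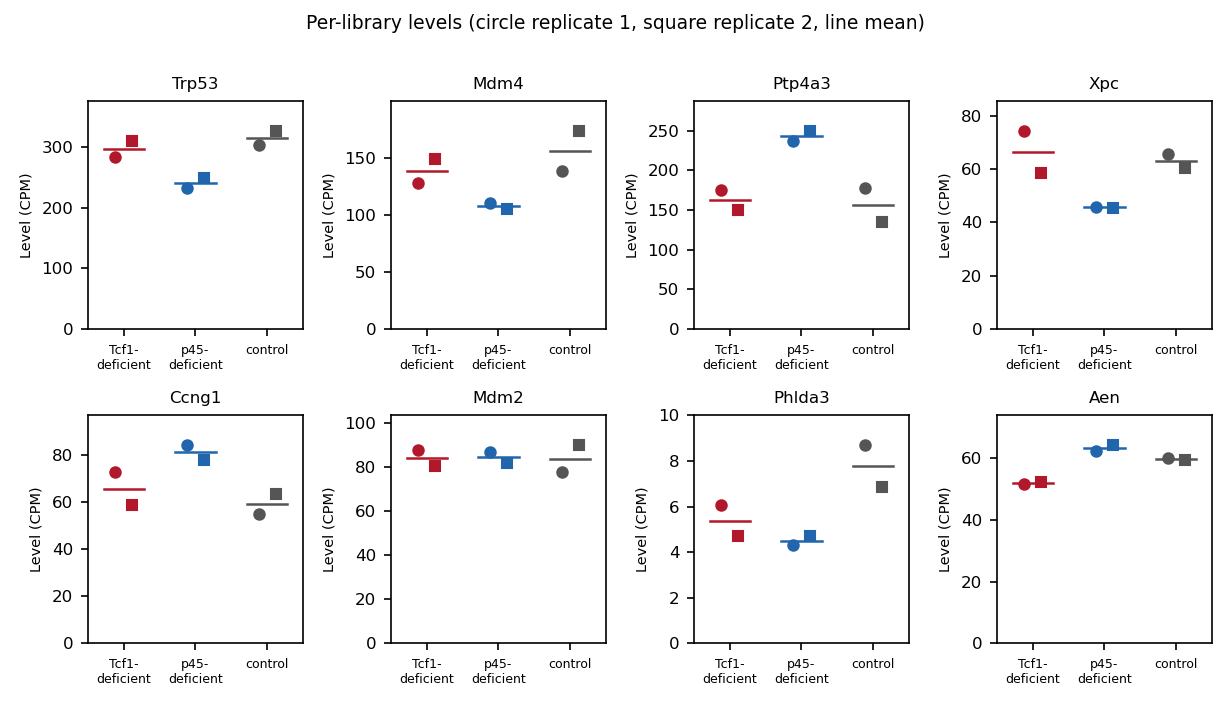
Level in CPM of 8 genes in each library, Tcf1-deficient left, p45-deficient in the middle and control right, with circles for replicate 1, squares for replicate 2 and a line at the mean of 2. Trp53, Mdm4 and Xpc are lowest and Ptp4a3 and Ccng1 highest in the p45-deficient libraries, Mdm2 overlaps in all groups, Phlda3 is highest in control, and Aen is lowest in the Tcf1-deficient libraries.

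Among genes of cell death none was called. Phlda3, an inhibitor of Akt signalling that p53 induces, stood at 4.30 and 4.69 CPM in p45-deficient, 6.07 and 4.70 CPM in Tcf1-deficient and 8.70 and 6.87 CPM in control libraries. Both mutants lay below both controls. The log2 fold change was −0.79 in p45-deficient cells (SE 0.29, adjusted p = 0.106 by edgeR) and −0.53 in Tcf1-deficient cells (SE 0.29, adjusted p = 0.685 by edgeR).

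Aen, a nuclease that takes part in p53-dependent apoptosis, stood at 62.3 and 64.2 CPM in p45-deficient, 51.5 and 52.4 CPM in Tcf1-deficient and 60.04 and 59.3 CPM in control libraries. The mutants thus stood on opposite sides of the controls by small amounts. The test of the difference between them gave −0.28 on the log2 scale for Tcf1-deficient against p45-deficient cells and did not pass (SE 0.11, edgeR's adjusted p = 0.138). Ei24, which encodes a protein of the endoplasmic reticulum, stood at 45.7 and 42.6 CPM in p45-deficient, 39.3 and 38.7 CPM in Tcf1-deficient and 41.8 and 46.2 CPM in control libraries.

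The death receptor gene Tnfrsf10b stood at 12.1 and 11.1 CPM in p45-deficient, 12.8 and 13.4 CPM in Tcf1-deficient and 15.6 and 14.8 CPM in control libraries, and both mutants lay below both controls. Its log2 fold change against control was −0.39 in p45-deficient (SE 0.19) and −0.21 in Tcf1-deficient cells (SE 0.19), with adjusted p values of 0.189 and 0.784 by edgeR. Zmat3, an RNA-binding splicing regulator, and the death receptor gene Fas differed so much between the 2 Tcf1-deficient libraries that they are described with those below.

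Among genes of metabolism and autophagy none was called. Trp53inp1, a cofactor of p53 in autophagy and cell death, stood at 311 and 296 CPM in p45-deficient, 328 and 277 CPM in Tcf1-deficient and 241 and 282 CPM in control libraries. Both p45-deficient libraries lay above both controls, while the Tcf1-deficient libraries overlapped them. Its log2 fold change against control was 0.21 in p45-deficient and 0.21 in Tcf1-deficient cells, each with an SE of 0.14. Sesn1 and Sesn2 encode sestrins, which restrain mTORC1. Sesn1 stood at 58.7 and 51.5 CPM in p45-deficient, 68.9 and 52.8 CPM in Tcf1-deficient and 57.6 and 50.9 CPM in control libraries, with overlap everywhere. Sesn2 stood at 5.15 and 4.16 CPM in p45-deficient, 4.48 and 8.99 CPM in Tcf1-deficient and 6.91 and 9.62 CPM in control libraries. 9630033F20Rik, which RefSeq lists as Tigar, the regulator of glycolysis, stood at 9.37 and 9.67 CPM in p45-deficient, 10.2 and 6.95 CPM in Tcf1-deficient and 6.67 and 8.17 CPM in control libraries. None of these 4 genes was called in any comparison.

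Plk3 was the only member called between the mutants, higher in Tcf1-deficient than in p45-deficient cells. Pmaip1, Gadd45a and Plk2 are set beside it because both Tcf1-deficient libraries were highest for them too, without passing. Ddb2, described above, had the same order. The grouping follows that order and not a shared role, except that Ddb2 was kept with the DNA repair genes. Both Tcf1-deficient libraries lay above both controls for 5 of the 27 genes, beside 16.4% of all genes tested. The share of all genes for which they lay above the other 4 libraries was not counted, so no pattern of the 27 genes is read from this order. Plk3, a Polo-like kinase gene induced by stress and by mitogens, stood at 20.002 and 13.4 CPM in Tcf1-deficient libraries, against 4.82 and 5.41 CPM in p45-deficient libraries, and at 4.21 and 9.92 CPM in control libraries. Both Tcf1-deficient libraries lay above the other 4. Plk3 was 3.27-fold higher in Tcf1-deficient than in p45-deficient cells (1.71 on the log2 scale with an SE of 0.42, and edgeR's adjusted p was 0.046). Against control its log2 fold change was 1.23 in Tcf1-deficient cells, which was not called (SE 0.41, adjusted p = 0.613 by edgeR), and −0.47 in p45-deficient cells (SE 0.42, adjusted p = 0.467 by edgeR). The call was lost without p45-deficient replicate 1 (adjusted p = 0.267 by edgeR), p45-deficient replicate 2 (0.213) or Tcf1-deficient replicate 1 (0.0893).

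Pmaip1, the gene of the BH3-only death protein Noxa, stood at 10.02 and 10.2 CPM in Tcf1-deficient libraries, against 3.90 and 6.37 CPM in p45-deficient and 2.42 and 6.83 CPM in control libraries. Gadd45a, a sensor of growth arrest and DNA damage, stood at 9.32 and 9.61 CPM in Tcf1-deficient libraries, against 7.06 and 5.03 CPM in p45-deficient and 4.69 and 7.75 CPM in control libraries. Plk2, a relative of Plk3, stood at 2.37 and 2.37 CPM in Tcf1-deficient libraries, against 1.69 and 0.910 CPM in p45-deficient and 0.338 and 1.83 CPM in control libraries. In each of these 3 genes both Tcf1-deficient libraries lay above the other 4, and no comparison passed for any of them. Their log2 fold changes in Tcf1-deficient against control cells were 1.12 (SE 0.49), 0.60 (SE 0.33) and 1.10 (SE 0.74), with adjusted p values by edgeR of 0.628, 0.682 and 0.723.

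Immediate-early genes, which rise within minutes of a signal or of handling, were followed beside this group and matched its order of libraries only in part. The summed level of the 15 such genes listed was 448 and 429 CPM in p45-deficient, 3076 and 3889 CPM in Tcf1-deficient and 711 and 3817 CPM in control libraries. Of the 14 that were tested, 4 were called higher in Tcf1-deficient than in p45-deficient cells (Jun, Jund, Ier2 and Ier3), and none in Tcf1-deficient against control. In p45-deficient against control cells all 14 had negative log2 fold changes, with a median of −2.46, and Jun and Jund were called lower. Of all genes tested, 5.05% were called higher in Tcf1-deficient against p45-deficient cells and 7.55% lower in p45-deficient against control cells. The count of 4 was 14 without either control library, 0 without either p45-deficient library, 1 without either Tcf1-deficient library, and 11 by DESeq2 or with non-robust dispersions. The count of 2 was 13 without control replicate 1, 6 without control replicate 2, 0 without either p45-deficient library, and 1, Ier3, without either Tcf1-deficient library. Control replicate 2, the control with the high immediate-early level, was also the higher control for Plk3, Pmaip1, Gadd45a and Plk2. Its immediate-early sum was above that of Tcf1-deficient replicate 1, but each of these genes was lower in it. Control replicate 1 had a higher immediate-early sum than both p45-deficient libraries and lay below both for each of these genes. For Ddb2, left out of this group, control replicate 1 (19.7 CPM) lay above p45-deficient replicate 1 (16.9 CPM). The part of immediate-early induction or of cell handling in these values was not tested.

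**Figure D4:**
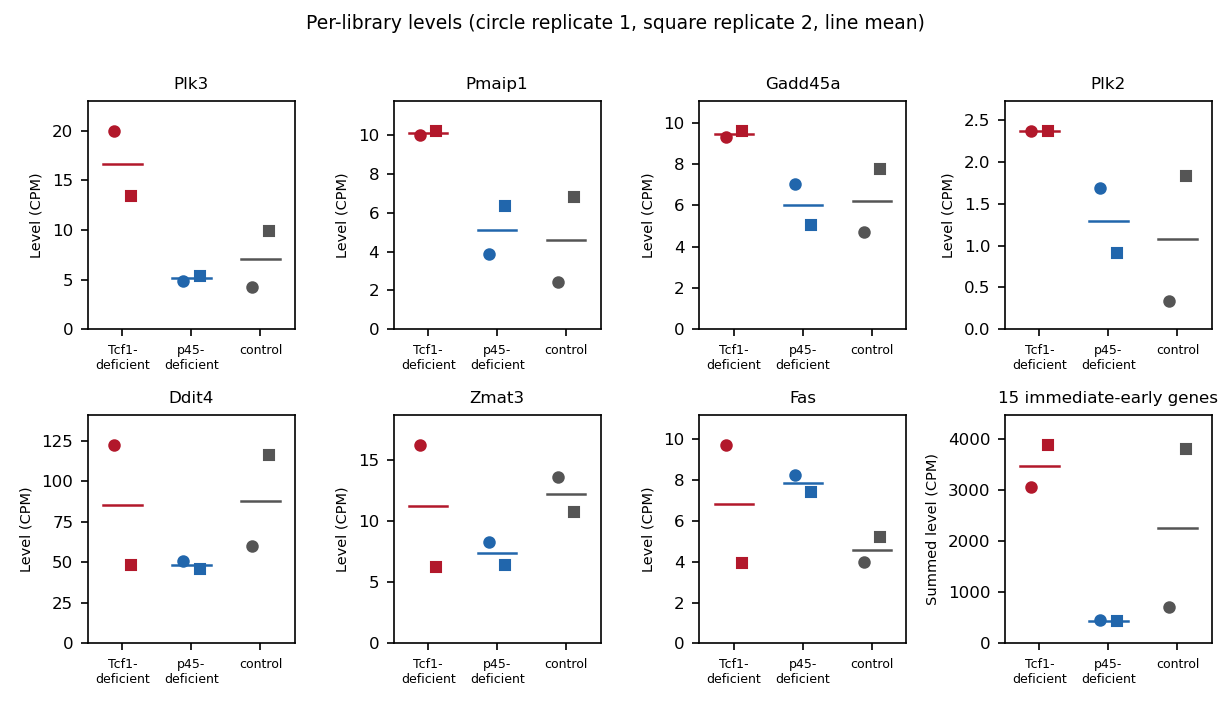
Level in CPM of 7 genes in each library, and the summed level of 15 immediate-early genes, with Tcf1-deficient left, p45-deficient in the middle and control right; circles are replicate 1, squares replicate 2 and lines the mean of 2. Plk3, Pmaip1, Gadd45a and Plk2 are highest in both Tcf1-deficient libraries, whereas Ddit4, Zmat3 and Fas are high in Tcf1-deficient replicate 1 and low in replicate 2.

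Further members, Ddit4, Zmat3 and Fas, were higher in Tcf1-deficient replicate 1 than in replicate 2. Others went the other way, among them Sesn2 (4.48 and 8.99 CPM in replicates 1 and 2) and Gtse1 (28.9 and 40.0 CPM). Ddit4, an inhibitor of mTORC1 induced by stress and glucocorticoids, stood at 50.9 and 45.9 CPM in p45-deficient libraries, 122 and 48.2 CPM in Tcf1-deficient replicates 1 and 2, and 59.9 and 116 CPM in control replicates 1 and 2. Zmat3 stood at 8.31 and 6.46 CPM in p45-deficient libraries, 16.3 and 6.28 CPM in Tcf1-deficient replicates 1 and 2, and 13.6 and 10.8 CPM in control libraries. Fas stood at 8.27 and 7.42 CPM in p45-deficient libraries, 9.72 and 3.91 CPM in Tcf1-deficient replicates 1 and 2, and 3.96 and 5.23 CPM in control libraries. For Ddit4, Zmat3 and Fas the Tcf1-deficient libraries enclosed the control or the p45-deficient values, and no comparison was called with all 6 libraries.

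Beside them, 10 genes of double-positive and mature T cells summed to 893 and 855 CPM in p45-deficient libraries, 1752 and 876 CPM in Tcf1-deficient replicates 1 and 2, and 621 and 727 CPM in control libraries. All 10 were tested and none was called against control. Their log2 fold changes in Tcf1-deficient cells were positive for 7 and negative for 3, both against control and against p45-deficient cells. None of these 10 genes was at 0 in any group. The part of other T cell stages in these values was not tested, and in sorted bulk cells more cells of a type and more RNA per cell cannot be told apart. Without Tcf1-deficient replicate 2 the comparison of the mutants called Zmat3, Plk3 and Xpc higher and Gtse1 lower, beside 3437 calls over all genes. Without Tcf1-deficient replicate 1 it called none of the 27, beside 1365 calls.

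The 4 members below the filter were close to silent. Perp, an adhesion protein of epithelia, had 15 and 2 counts in p45-deficient, 8 and 1 counts in Tcf1-deficient and 0 and 6 counts in control libraries. Trp73, the p53 relative with the promoter match shown above, had 0 counts in p45-deficient, 9 and 0 counts in Tcf1-deficient and 1 and 0 counts in control libraries. The receptor gene Eda2r had 11 counts over all 6 libraries and the stress cytokine gene Gdf15 had 1, in Tcf1-deficient replicate 1.

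Other targets of p53 outside the 31 genes were counted from a separate list of 39 symbols in the files, 36 of them tested. In p45-deficient against control cells 1 of the 36 rose and 7 fell, beside 8.47% and 7.55% of all genes tested, and the median log2 fold change of the list was −0.09, against 0.05 over all genes. The largest fall was that of Epha2, an ephrin receptor gene, at 0.514 and 1.29 CPM in p45-deficient and 11.5 and 12.9 CPM in control libraries (−3.78 on the log2 scale with an SE of 0.47, and edgeR's adjusted p was 0.00498). Dcxr, a carbonyl reductase gene, stood at 0.368 and 0.814 CPM in p45-deficient and 6.43 and 5.99 CPM in control libraries (log2 fold change −3.41, SE 0.45). Epha2 and Dcxr stood at 5.71 and 8.86 CPM and at 4.70 and 4.91 CPM in Tcf1-deficient libraries, above p45-deficient by log2 fold changes of 3.03 and 3.04 (adjusted p = 0.0135 and 0.012 by edgeR).

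The other falls were of Abhd4 (−1.25), Bbc3 (−1.20), Trp53i13 (−0.87), Foxo3 (−0.80) and Tsc2 (−0.47), all on the log2 scale, and Ckap2, a spindle gene, rose by 0.80. Bbc3 encodes the BH3-only death protein Puma and stood at 5.44 and 5.51 CPM in p45-deficient, 8.75 and 6.70 CPM in Tcf1-deficient and 15.2 and 9.92 CPM in control libraries. Cdkn1a, the cell-cycle inhibitor p21 through which p53 arrests cells, stood at 45.5 and 35.9 CPM in p45-deficient, 44.2 and 73.0 CPM in Tcf1-deficient and 54.1 and 63.0 CPM in control libraries, with no call. Bax, the pore-forming death effector, stood at 84.5 and 82.1 CPM in p45-deficient, 84.5 and 63.7 CPM in Tcf1-deficient and 72.2 and 58.2 CPM in control libraries, with no call. The list had fewer calls without any one of the p45-deficient or control libraries, as had all genes tested. Epha2 and Dcxr were called in each of the 6 fits with 1 library left out. In Tcf1-deficient against p45-deficient cells 5 genes of the list were higher (Foxo3, Trp53i13, Dcxr, Abhd4 and Epha2) and 2 lower (Trp53i11 and Ckap2), and in Tcf1-deficient against control none was called. Without p45-deficient replicate 1 the comparison of the mutants had no call on the list, and without p45-deficient replicate 2 it had 2. Without Tcf1-deficient replicate 2 it had 10 higher and 4 lower, and Tcf1-deficient against control had 4 higher.

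Upstream of p53, 4 of 28 tested regulators and 4 of 21 tested genes that sense or signal DNA damage were called in p45-deficient against control cells, beside 16% of all genes tested. Of the regulators 1 rose, the deacetylase gene Sirt1 (log2 fold change 0.61), and 3 fell, the acetyltransferase genes Ep300 (−0.48) and Crebbp (−0.49) and the ubiquitin ligase gene Huwe1 (−0.56). In Tcf1-deficient against p45-deficient cells Ppp1r13b (0.89) and Pml (0.54) were higher. Of the damage genes, Brca1 (0.72), Rnf168 (0.56) and Clspn (0.61) rose in p45-deficient against control cells and Trp53bp1, which binds p53 and marks breaks, fell (−0.47). Between the mutants Brca1 (−0.86) and Rnf168 (−0.52) were lower in Tcf1-deficient cells. In that comparison the damage list had no call without any one of the p45-deficient or control libraries, 1 lower without Tcf1-deficient replicate 1 and 8 lower without Tcf1-deficient replicate 2. The regulators had no call there without either p45-deficient library, 1 higher without either control library or Tcf1-deficient replicate 1, and 4 higher and 4 lower without Tcf1-deficient replicate 2. In p45-deficient against control cells none of the 3 rises on the damage list was called with library totals, while that of Sirt1 was. Neither list had a call there without any one of the p45-deficient or control libraries, fits in which fewer of all genes tested were called too. Without Tcf1-deficient replicate 1 the regulators had 3 higher and 4 lower calls there and the damage list 5 and 2, and without Tcf1-deficient replicate 2 these were 4 and 3, and 7 and 1. The median of the damage list was 0.20 in p45-deficient against control cells, −0.05 in Tcf1-deficient against control and −0.33 in Tcf1-deficient against p45-deficient cells.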

How the data were processed

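RNA of 6 sorted DN3 libraries was analysed from read counts per gene symbol as the authors deposited them, whole numbers with no normalisation. The submitters' processing notes name TopHat2, featureCounts 1.5.0-p3 and DESeq2 3.4 and the build mm9, without their roles. Neither the gene annotation nor the strand setting is stated, and overlapping genes may share reads.

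The test was edgeR's (version 4.0.16, R 4.3.3). filterByExpr kept 12939 genes, which were scaled with TMM and fitted with 1 mean per genotype over all 6 libraries (3 residual degrees of freedom, robust quasi-likelihood F test, two-sided, Benjamini-Hochberg adjustment over all genes of a comparison, threshold 0.05). SEs come from the F statistic. CPM are relative to TMM-scaled totals of the tested genes. An exact permutation test of 2 against 2 libraries cannot go below p = 0.333 and was not used. Replicate numbers do not pair libraries across groups. The 2 libraries of each group differed by more than counting noise (chi-square per degree of freedom 9.79 to 73.1), and each counted as a replicate.

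The members and lists were chosen with earlier results of these data known. Trp53, Mdm2, Mdm4, called members and the 8 of smallest p per comparison get values in every library, and other members were added. Of the other lists the called genes are named. Promoters are from RefSeq (GRCm38.p6), matched by symbol or synonym. DESeq2 1.42.0, other scalings, no filter, non-robust dispersions, 2-group fits, a replicate block and omissions of single libraries were the alternatives.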

Additional observations from a re-analysis of the deposited data

How the results depend on the processing

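No call among the 27 genes held in all 14 settings: Mdm4 and Ptp4a3 in p45-deficient against control were each called in 8 and Plk3 in Tcf1-deficient against p45-deficient in 10, and none of these 3 values changed sign. For p45-deficient against control cells (1 gene higher, 1 lower), upper-quartile scaling and library totals each gave 0 higher and 3 lower, no filter and DESeq2 each gave 1 higher and 3 lower, non-robust dispersions gave 0 lower, and a fit of only the 2 groups compared gave 2 higher and 6 lower, with 3907 genes called in all against 2073. Library totals split the calls over all genes into 721 higher and 1281 lower, against 1096 and 977 with TMM, and put the median over all genes at −0.06 on the log2 scale, against 0.05. For Tcf1-deficient against p45-deficient cells (1 higher, 0 lower), DESeq2 size factors and library totals each gave 2 higher, and no filter and DESeq2 each gave 2 higher and 1 lower. Over all genes DESeq2 called 2440 there and a fit of only these groups 488, against 1348, and library totals split the calls into 744 higher and 483 lower, against 654 and 694. For Tcf1-deficient against control cells no filter called 33 genes and DESeq2 145, against 0, and no setting called any of the 27. The cause of these shifts was not tested.

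With the replicate block, replicate numbers being no known pairing (correlations of deviations −0.04 to 0.02), 0 genes were lower in p45-deficient against control and 0 higher in Tcf1-deficient against p45-deficient. With single libraries left out, members called ranged over 0 to 3 higher and 0 to 6 lower for p45-deficient against control and 0 to 3 higher and 0 to 1 lower for Tcf1-deficient against p45-deficient. All genes called ranged over 258 to 3923, 105 to 3437 and, for Tcf1-deficient against control, 0 to 894. Where 1 library remained in a group, its spread was taken from the others. The list counts under these settings were added after the data were seen.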
